A study of Zea mays with 36 samples.

Results

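The kinesin genes of maize (Zea mays) were examined in the shoot apical meristem, the dividing tissue from which a seedling forms its leaves and stem, of rgd2-R mutant and non-mutant plants. A probe was taken as a kinesin probe where the platform annotation gave it a symbol or synonym made of kin or krp and a number. This gave 17 probes of 7 genes among 35200 probes, with 5 probes of 4 genes on the SAM1 array and 12 probes of 7 genes on the SAM3 array. The genes were kin4 (also krp4), krp13 (also KIN13), KIN9, KIN8, krp1 (also KIN1), krp6 (also KIN6 and kinesin-1) and kin15 (also krp15). Of these, kin4, krp13, KIN9 and KIN8 were on both arrays. The current gene table holds 12 genes of such a name, of which 6 were on the arrays. KIN9 is not in that table under its platform identifier, so its current identity was not settled. Values below are for the named array spots (SAM1 spot 9050, for example). No measured value entered the choice of members.

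The rgd2-R group carried the rgd2-R allele of ragged seedling2 after 5 generations of introgression into the inbred line Mo17, and the other group was labelled non-mutant. The labels do not give the genetic background of the non-mutant plants. Both were seedlings grown in the same controlled environment, and their meristems were collected by laser microdissection at 14 days after germination. RNA went through 2 rounds of amplification before labelling, so small amounts of starting RNA stand behind each value. Each hybridisation set rgd2-R against non-mutant RNA, in 6 biological replicates per array design. The rgd2-R RNA carried Cy3 in replicates 1 to 3, and the dyes were exchanged for replicates 4 to 6. Low, mid and high readings were deposited for each replicate, 3 in all, which makes 36 samples. The labels do not say how many plants were pooled or whether replicates were grown apart, so the p-values measure only the spread between these replicates.

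Kinesins are motor proteins that use the energy of ATP to move along microtubules or to shorten them. In dividing plant cells, different kinesins help to build the spindle, to move chromosomes and to assemble the phragmoplast, the microtubule array that lays down the new cell wall. Others carry cargo or organise microtubules in cells that are not dividing. ragged seedling2 encodes an ARGONAUTE protein of the trans-acting small RNA pathway, which acts in the patterning of the upper and lower leaf surface. The comparison asks whether the RNA of kinesin genes differed between meristems with and without the mutation. In this bulk tissue, fewer cells of a type and less RNA per cell cannot be told apart.

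Each ratio is given on the log2 scale, rgd2-R over non-mutant, as the mean of the 3 readings of a replicate. On SAM3, the low and mid readings of replicate 3 had their channels exchanged relative to its high reading, although the labels give the same dyes. Over all probes the low and mid ratios correlated with the high ratios at -0.911 and -0.909, whereas all other pairs of readings of 1 replicate on either array lay between 0.248 and 0.861. These 2 readings were also the ones of 36 in which the median Cy3 background was below that of Cy5, at 19 against 157 and 30 against 210. In the high reading of replicate 3 it was 520 in Cy3 and 46 in Cy5, and Cy3 was likewise above Cy5 in all 34 readings apart from these 2. With the same reading of replicate 1, low, mid and high correlated at -0.569, -0.494 and 0.595. The mean of replicate 3 with the dyes as labelled thus averages readings that oppose each other. Kinesin values on SAM3 are therefore also given with the sign of these 2 readings turned, so that the 3 readings run one way, and such values are called turned. The direction of SAM3 replicate 2 was also in doubt. Its low, mid and high readings correlated with the high reading of replicate 1 at -0.191, -0.224 and -0.159. Those of replicate 5 gave -0.0417, -0.000412 and -0.0591. Turning replicate 2 as well was run as an alternative only. Over all probes, the median ratio of signal to local background in Cy3 was 2.81 on SAM1 and 3.53 on SAM3. Of 14 meristem markers listed, 3 were named on SAM1 and 5 on SAM3, among them kn1. Their probes ran from 2.14 to 32 times background on SAM1 and from 1.19 to 27 times on SAM3. Photosynthesis marker probes stayed at 1.1 to 2.65 times background on SAM1 and 1.27 to 3.26 times on SAM3. Probes of the 2 vascular marker genes ran from 1.47 to 67.7 times background on SAM1 and from 1.49 to 51.8 times on SAM3. Epidermis marker probes ran from 1.54 to 9.89 times on SAM1 and from 2.31 to 12.9 times on SAM3. Leaf primordium marker probes ran from 4.32 to 6.53 times and from 2.64 to 7.48 times. No marker gene passed an adjusted p of 0.05 between genotypes. No probe was named here as ragged seedling2, so the level of the mutated gene is not analysed here.

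No kinesin gene changed between rgd2-R and non-mutant meristems by the test used. Of the kinesin probes, 0 of 5 on SAM1 and 0 of 12 on SAM3 had a limma adjusted p under 0.05, and over all probes of each array 0% were called. At an unadjusted p under 0.05, 2842 SAM1 and 1053 SAM3 probes of any gene were counted. On SAM1 1 of 5 kinesin probes was higher in rgd2-R at that level, against a background of 6.68% of all SAM1 probes. On SAM3 1 of 12 was higher, against a background of 2.99% of all SAM3 probes. Both of these probes belonged to kin4. With the turned readings, 1 of 12 SAM3 kinesin probes was again higher at that level, against 2.62% of all probes, and 0% of all probes had an adjusted p under 0.05. That probe belonged to KIN9, not to kin4.

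Kinesin ratios were small on both arrays under the background correction used. On SAM1 2 probes lay above 0 and 3 below, from -0.073 to 0.27, with a median of -0.017 beside 0.0027 for all probes. On SAM3 9 probes lay above 0 and 3 below, from -0.047 to 0.26, with a median of 0.065 beside -0.0027 for all probes. The middle 90% of all probes spanned -0.25 to 0.23 on SAM1 and -0.19 to 0.17 on SAM3, so most kinesin probes lay inside the range common to the array. The turned readings gave 8 SAM3 probes above 0 and 4 below, from -0.16 to 0.37, with a median of 0.043 beside 0.0022. All 6 replicates had the same sign at 0 of 5 SAM1 kinesin probes, where 6.94% of all SAM1 probes had it. On SAM3 1 of 12 kinesin probes had it, against 3.16% of all probes, and 1 of 12 with the turned readings, against 4.49%. Averaged by gene, 2 of 4 kinesin genes were above 0 on SAM1, and 5 of 7 on SAM3 under either direction.

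**Figure D1:**
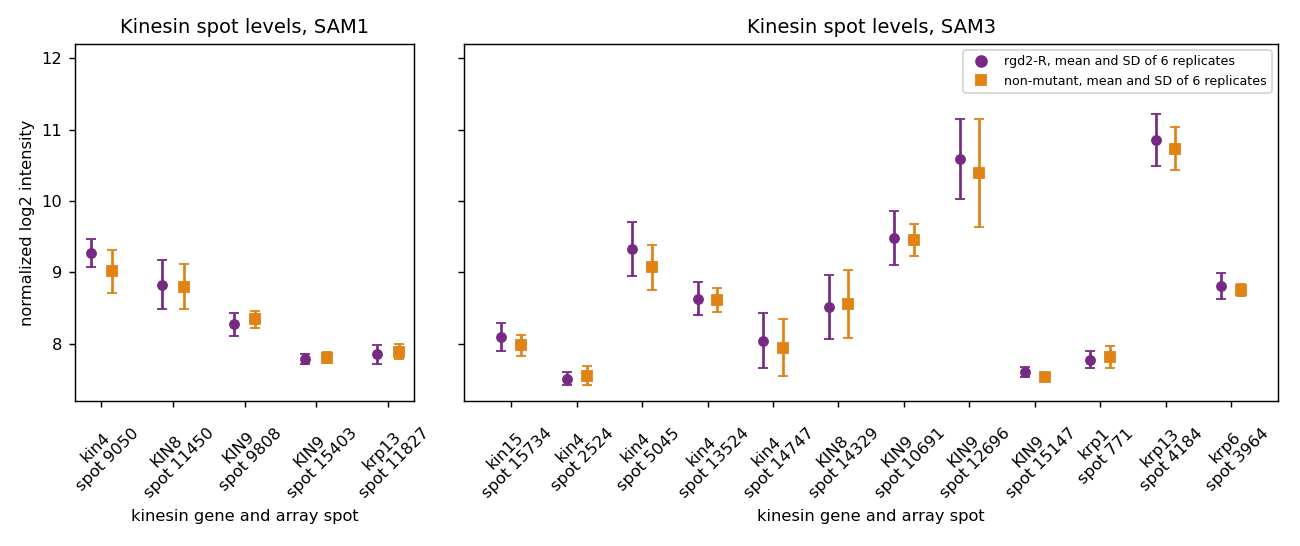
Normalized log2 intensity of each kinesin spot in rgd2-R (purple circles) and non-mutant meristem (orange squares), mean and SD of 6 replicates per array, with gene and spot number along the horizontal axis. Dyes are as labelled, and the error bars of the genotypes overlap at each spot. The bars do not take account of the pairing of genotypes within a hybridisation. At kin4 spot 9050 the means were 9.28 in rgd2-R and 9.01 in non-mutant, and at krp13 spot 4184 they were 10.9 and 10.7.

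The largest kinesin ratio on SAM1 was that of kin4. Its SAM1 spot 9050 had a signal 3.8 times background in Cy3 and 5.37 times in Cy5, and signal exceeded background in 36 of 36 readings of either dye. Its level was 9.28 ± 0.20 in rgd2-R and 9.01 ± 0.31 in non-mutant meristem (normalized log2 intensity, SD, n = 6). The levels ran from 9.02 to 9.55 in rgd2-R and from 8.74 to 9.57 in non-mutant, so the ranges overlapped. The genotypes were paired within each hybridisation, so the comparison rests on the ratios and not on this overlap. With rgd2-R in Cy3, kin4 spot 9050 had log2 ratios of 0.315, -0.014 and 0.56 in replicates 1 to 3. With rgd2-R in Cy5 it had 0.507, 0.008 and 0.217 in replicates 4 to 6. In 5 of 6 replicates the ratio was above 0, but in replicates 2 and 5 it was close to 0. There the low, mid and high readings disagreed, at -0.225, 0.209 and -0.025 in replicate 2 and -0.274, 0.128 and 0.17 in replicate 5. Over all probes, the readings of SAM1 replicate 5 correlated at only 0.248 to 0.272, against 0.651 to 0.81 in the other SAM1 replicates. The means by dye, 0.29 ± 0.29 with rgd2-R in Cy3 and 0.24 ± 0.25 with rgd2-R in Cy5 (SD, n = 3 each), were close to each other. The estimate was 0.27 (SE 0.093, 1.20-fold, 95% interval 1.03 to 1.40), with an unadjusted limma p of 0.0237 and an adjusted p of 0.253. The unadjusted p rested on several replicates, being 0.0614, 0.0681, 0.0816 and 0.0539 in the gene fit without replicate 1, 3, 4 and 6. By reading, kin4 spot 9050 averaged 0.132 at low, 0.272 at mid and 0.393 at high, and the SDs of 0.339, 0.216 and 0.336 were of the size of these differences.

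On SAM3 kin4 had 4 spots, and they did not share one value. Spot 5045 had ratios of 0.109, 0.339 and 0.293 with rgd2-R in Cy3, and of 0.229, 0.454 and 0.108 with rgd2-R in Cy5. With the dyes as labelled all 6 were above 0, but replicate 3 was a mean of opposed readings, at 0.775, 0.952 and -0.848 for low, mid and high. Turned, replicate 3 gave -0.858 and 5 of 6 replicates were above 0. The estimate was 0.26 (SE 0.065, 1.19-fold) as labelled, with an unadjusted limma p of 0.00609 and an adjusted p of 0.578. Turned, it was 0.063 (SE 0.16, unadjusted p = 0.706, adjusted p = 0.914), so the unadjusted call at spot 5045 was lost by the turn. With replicate 3 left out, the estimate was 0.24 and spot 5045 still passed the unadjusted threshold of 0.05. That setting drops the whole replicate, including its high reading of -0.848, which was not turned. Leaving out only the low and mid readings of replicate 3 was not tested. With the high readings alone of all replicates, spot 5045 gave 0.036 and did not pass that threshold. The level at spot 5045 was 9.32 ± 0.38 in rgd2-R and 9.07 ± 0.31 in non-mutant (SD, n = 6), and 9.23 ± 0.54 and 9.16 ± 0.22 turned, with signal 8.85 times background in Cy3.

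The other kin4 spots on SAM3 lay nearer 0. Spot 14747 gave 0.098 (SE 0.055, adjusted p = 0.841, turned 0.21; 0.77 with plain background subtraction and 0.73 with the deposited ratios) and spot 13524 gave 0.022 (SE 0.068, adjusted p = 0.99, turned -0.052). Spot 2524 gave -0.045 (SE 0.051, adjusted p = 0.951, turned 0.024), and its signal was 1.1 times background in Cy3, so little kin4 signal stood behind it. Plain background subtraction gave -0.60 at spot 2524 and the deposited ratios gave -0.58, opposite in sign to spot 14747. Spots 2524 and 14747 are annotated with the same clone. Spot 14747 was nonetheless higher than spot 2524 in 6 of 6 replicates, by 0.143 on average (0.04 to 0.305), and by 0.184 turned, with 0.489 in replicate 3. Among 48 clones with 2 spots on SAM3, the median absolute difference between spots was 0.118 and the 90th percentile 0.286 (turned 0.105 and 0.327). The mean of the kin4 pair was thus within the common spread of repeated spots under the background correction used. That spread was not examined under plain subtraction or in the deposited ratios. Averaged over the 4 spots, kin4 on SAM3 had ratios of 0.014, 0.04 and 0.051 with rgd2-R in Cy3 and of 0.156, 0.209 and 0.025 with rgd2-R in Cy5. The gene estimate was 0.083 (SE 0.049, adjusted p = 0.867), and 0.061 (SE 0.054, adjusted p = 0.743) turned. In the gene fit on SAM1, the single kin4 spot had an adjusted p of 0.265.

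**Figure D2:**
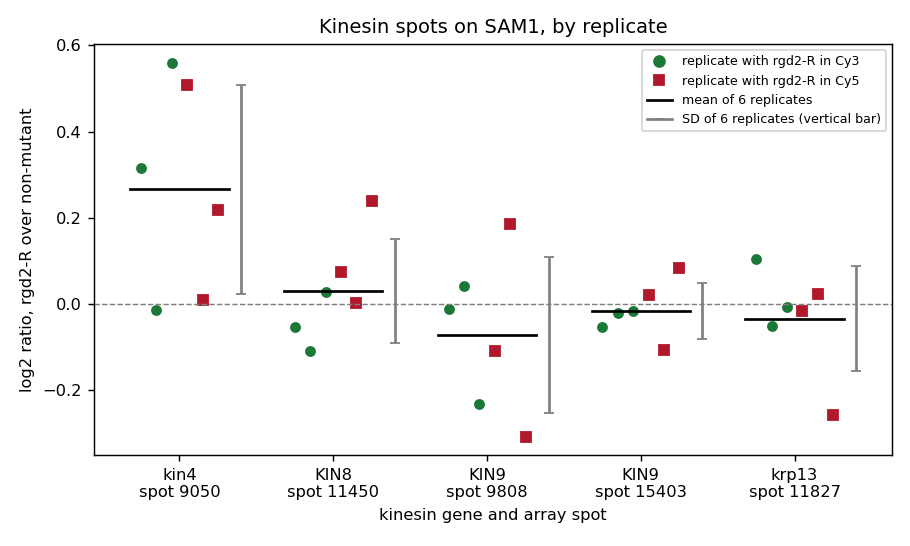
Log2 ratio of rgd2-R over non-mutant at the 5 SAM1 kinesin spots in each of 6 replicates, as circles for rgd2-R in Cy3 and squares for rgd2-R in Cy5, with the mean as a horizontal line and the SD as a vertical bar. The points of kin4 spot 9050 reach 0.56, while the means of the other spots lie between -0.073 and 0.030.

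krp13 was measured by 1 spot on each array, of which only the SAM3 spot was clearly above background. On SAM3, spot 4184 had a signal 15.6 times background in Cy3 and 34.6 times in Cy5. Its level was 10.86 ± 0.36 in rgd2-R and 10.73 ± 0.30 in non-mutant (normalized log2 intensity, SD, n = 6), and 10.85 ± 0.37 and 10.74 ± 0.30 turned. The SAM3 krp13 ratios were 0.279, 0.15 and 0.048 with rgd2-R in Cy3, and 0.39, 0.17 and -0.259 with rgd2-R in Cy5. Replicate 6 alone was below 0. The estimate was 0.13 (SE 0.089, 1.09-fold, 95% interval 0.944 to 1.27), with a limma adjusted p of 0.896. Turned, krp13 on SAM3 gave 0.11 (SE 0.10, adjusted p = 0.754), and replicate 3 then also lay below 0, at -0.09. The 3 readings of krp13 spot 4184 averaged 0.152 at low, 0.194 at mid and 0.0427 at high.

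The SAM1 spot of krp13, spot 11827, was dim, at 1.08 times background in Cy3, and signal exceeded background in 24 of 36 readings of either dye, by more than 2 times in 4. Its ratios were 0.104, -0.051 and -0.008 with rgd2-R in Cy3, and -0.016, 0.022 and -0.259 with rgd2-R in Cy5. Apart from replicate 6, these krp13 values lay between -0.051 and 0.104. The estimate was -0.035 (SE 0.059, adjusted p = 0.85), and it says little about krp13, since the spot was close to background. Replicate 6 was the lowest krp13 value on both arrays, at -0.259 each.

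KIN9 had 2 spots on SAM1 and 3 on SAM3. On SAM1, spot 9808 gave ratios of -0.012, 0.042 and -0.233 with rgd2-R in Cy3, and -0.109, 0.184 and -0.309 with rgd2-R in Cy5. The estimate was -0.073 (SE 0.077, adjusted p = 0.733). SAM1 spot 15403 gave -0.017 (SE 0.051, adjusted p = 0.926), but its signal was 1.04 times background and in 0 of 36 readings more than 2 times background. No genotype difference in KIN9 beyond the replicate spread was seen on SAM1.

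On SAM3, KIN9 spot 12696 had a signal 18.9 times background in Cy3. Its ratios were 0.266, 0.45 and -0.323 with rgd2-R in Cy3, and 0.546, 0.17 and 0.122 with rgd2-R in Cy5. Replicate 3 alone was below 0. The estimate was 0.21 (SE 0.11, 1.15-fold), with an unadjusted limma p of 0.112 and an adjusted p of 0.837. In replicate 3 its low, mid and high readings were -0.973, -0.539 and 0.543. Turning the first pair of readings moved that replicate to 0.685, so that 6 of 6 replicates lay above 0. The turned KIN9 estimate at spot 12696 was 0.37 (SE 0.087), with an unadjusted p of 0.00484 and an adjusted p of 0.568. The turn therefore acted in opposite directions on KIN9 spot 12696 and kin4 spot 5045.

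The other KIN9 spots on SAM3 did not follow spot 12696. Spot 10691 was also well above background, at 8.1 times background, but had ratios of -0.502, 0.328 and 0.237 with rgd2-R in Cy3 and 0.181, 0.348 and -0.408 with rgd2-R in Cy5. Its replicates lay on both sides of 0 in each dye orientation, and the estimate was 0.031 (SE 0.14, adjusted p = 0.995, turned -0.16). Spot 15147 was dim, at 1.27 times background, and gave 0.069 (SE 0.049, adjusted p = 0.902, turned 0.062). Its value depended on the background correction, at 1.05 (adjusted p = 0.98) with plain subtraction and 1.18 (adjusted p = 0.982) with the deposited ratios. Averaged over its spots, KIN9 on SAM3 gave 0.10 (SE 0.077, adjusted p = 0.92), and 0.091 (SE 0.084, adjusted p = 0.75) turned. KIN9 on SAM1 gave -0.045 (SE 0.050, adjusted p = 0.761).

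**Figure D3:**
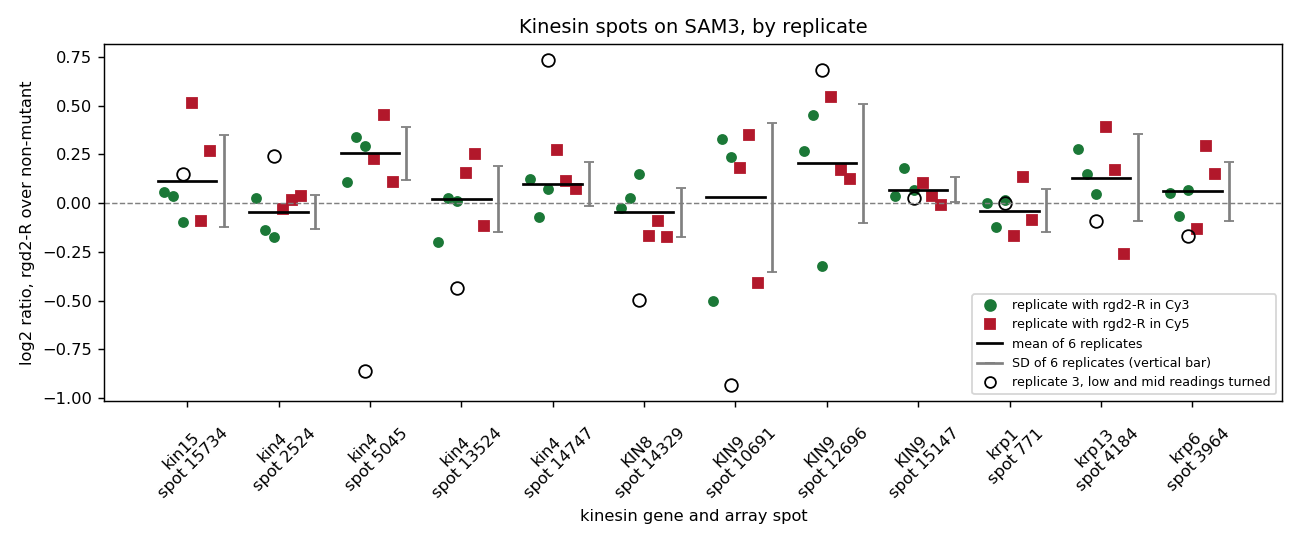
Log2 ratio of rgd2-R over non-mutant at the 12 SAM3 kinesin spots in each of 6 replicates, drawn as for SAM1, with an open circle for replicate 3 after its low and mid readings were turned. The open circle falls to -0.858 at kin4 spot 5045 and to -0.93 at KIN9 spot 10691, and lies at 0.685 at KIN9 spot 12696.

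KIN8 had 1 spot on each array. On SAM1, spot 11450 gave -0.054, -0.11 and 0.026 with rgd2-R in Cy3, and 0.074, 0.002 and 0.239 with rgd2-R in Cy5. The estimate was 0.030 (SE 0.055, adjusted p = 0.867). On SAM3, spot 14329 gave -0.024, 0.026 and 0.151 with rgd2-R in Cy3, and -0.169, -0.09 and -0.173 with rgd2-R in Cy5. With the dyes as labelled the SAM3 KIN8 values split by dye, with means of 0.051 ± 0.090 for rgd2-R in Cy3 and -0.14 ± 0.047 for rgd2-R in Cy5 (SD, n = 3 each). Turned, the Cy3 mean was -0.16 ± 0.29. Replicates 1 and 2, which hold no exchanged readings, lay above all 3 replicates with rgd2-R in Cy5 in either case. The estimate, which balances the dyes, was -0.047 (SE 0.050, adjusted p = 0.95). Turned, replicate 3 of KIN8 moved to -0.495 and the estimate to -0.15 (SE 0.083, adjusted p = 0.676), with 1 of 6 replicates above 0.

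krp1, krp6 and kin15 had 1 spot each, on SAM3. krp6 carries the alias kinesin-1, which is also the name of the animal motors that carry cargo along microtubules. Its spot 3964 had a signal 4.14 times background and gave 0.053, -0.066 and 0.069 with rgd2-R in Cy3, and -0.132, 0.291 and 0.151 with rgd2-R in Cy5. The krp6 estimate was 0.061 (SE 0.067, adjusted p = 0.951, turned 0.022), and from 0.014 to 0.12 leaving out 1 replicate at a time. The krp1 ratios, at spot 771, were -0.001, -0.122 and 0.015 with rgd2-R in Cy3, and -0.168, 0.134 and -0.088 with rgd2-R in Cy5. The krp1 estimate was -0.038 (SE 0.059, adjusted p = 0.972, turned -0.040). For both genes the replicates lay on either side of 0 and the SD exceeded the mean. kin15 at spot 15734 gave 0.058, 0.039 and -0.099 with rgd2-R in Cy3, and 0.513, -0.089 and 0.269 with rgd2-R in Cy5. Its estimate was 0.12 (SE 0.083, adjusted p = 0.909, turned 0.16), of which replicates 4 and 6 gave the larger share. Without replicate 4 it was 0.044 and without replicate 5 it was 0.20.

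**Figure D4:**
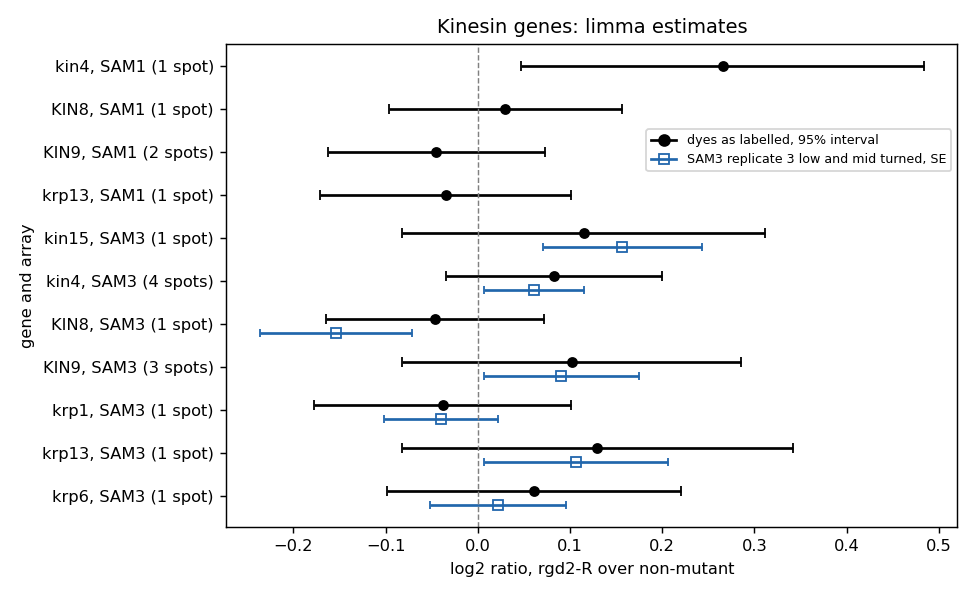
limma estimates of the log2 ratio of rgd2-R over non-mutant for each kinesin gene and array, as filled circles with the 95% interval and, for SAM3, as open squares with the SE after the low and mid readings of replicate 3 were turned. The interval of kin4 on SAM1, 0.047 to 0.48, lies above 0 before adjustment but not without replicate 1, 3, 4 or 6, and those of the other 10 estimates with dyes as labelled include 0.

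The 4 kinesin genes on both arrays were compared between arrays, since the spots and hybridisations differ and the genotypes do not. kin4 averaged 0.266 ± 0.242 on SAM1 and 0.0827 ± 0.0803 on SAM3 (SD, n = 6 each), a difference of 0.183 (exact permutation p = 0.126, turned 0.205 and exact p = 0.0931). krp13 averaged -0.0349 ± 0.122 on SAM1 and 0.13 ± 0.223 on SAM3, a difference of -0.164 (exact permutation p = 0.145, turned -0.141 and exact p = 0.229). KIN9 differed by -0.147 (exact permutation p = 0.113, turned -0.135 and exact p = 0.149). KIN8 differed by 0.0763 (exact permutation p = 0.305), and by 0.184 turned (exact p = 0.0498). Over the 4 two-sided comparisons, the smallest Benjamini-Hochberg adjusted exact p was 0.193, and 0.186 turned. No difference between arrays passed the test, although 3 of the 4 gene means had opposite signs. The comparison says little for krp13, whose SAM1 spot was at 1.08 times background. The same holds for KIN9, of whose 2 SAM1 spots spot 15403 was at 1.04 times. Ratios at both of these dim spots lay near 0 under the background correction used. With plain background subtraction, krp13 on SAM1 gave -1.04 (SE 0.82, limma adjusted p = 0.683).

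Other genes of cell division and of the microtubule track were taken by symbol, and 0 of them had a limma adjusted p under 0.05 on either array. Tubulins are the subunits of microtubules. Of 10 tubulin genes on SAM1, 3 were above 0 and 7 below, with a median of -0.080 beside 0.0030 for all features (named genes and unnamed probes). At an unadjusted p under 0.05, 1 was higher and 1 lower, against a background of 14.1% of all SAM1 features in either direction. The beta-tubulin genes tub7 and tub6 gave -0.15 (SE 0.056) and -0.13 (SE 0.067), and tub5 gave 0.17 (SE 0.069). Of 7 tubulin genes on SAM3, 2 were above 0 and 5 below, with a median of -0.068 beside -0.0028 for all features. Turned, 0 were above 0 and 7 below, with a median of -0.24. On SAM3 tua6 gave 0.15 (turned -0.15), tub6 -0.068 (turned -0.24) and tua4 -0.094 (turned -0.32). Tubulin medians and the kin4 gene estimates therefore lay on opposite sides of 0, without a test of that difference. kin4 had the largest kinesin ratio on SAM1. The median over all kinesin probes was -0.017 on SAM1, below 0 as for the tubulins, and 0.065 on SAM3 (turned 0.043).

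Replication genes lay above 0 more often than below. On SAM1, 4 of 4 were above 0, where 51.4% of all SAM1 features were, with a median of 0.14 beside 0.0030 for all features. Of these 4, 1 was higher at an unadjusted p under 0.05, against a background of 14.1% of all SAM1 features in either direction. pcna1 and pcna2, which encode the sliding clamp of DNA polymerase, gave 0.22 (SE 0.090) and 0.17 (SE 0.096), and MCM6, a subunit of the replicative helicase, gave 0.099 (SE 0.055). On SAM3, 4 of 5 were above 0, also turned, where 48.5% of all SAM3 features were (turned 51.3%). Their median was 0.055 (turned 0.035). There 1, pcna2, was higher at an unadjusted p under 0.05, against a background of 6.52% of all SAM3 features in either direction. Turned, 0 of 5 passed that level, against 7.33% of all features. pcna2 gave 0.19 (SE 0.062, turned 0.035), MCM6 0.21 (SE 0.13, turned 0.18, 0.055 without replicate 6) and orc3, of the origin recognition complex, -0.11 (SE 0.077, turned 0.033).

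Genes of the cell cycle engine showed no common direction. Of 5 cyclin, CDK and retinoblastoma-related genes on SAM1, 3 were above 0 and 2 below, with a median of 0.0017. cyc1 gave -0.11 (SE 0.094, -0.0039 without replicate 1), wee1, a kinase that holds back division, 0.014 (SE 0.084), and cdc2, a cyclin-dependent kinase, 0.0033 (SE 0.047). Of 6 on SAM3, 3 were above 0 and 3 below, with a median of -0.0019, and 4 above and 2 below turned. There the retinoblastoma-related genes rrb2, rbr3 and rrb1 gave -0.25 (SE 0.088, turned -0.16), 0.12 (SE 0.080, turned 0.26) and -0.10 (SE 0.090, turned 0.068). rrb2 was the 1 gene of the 6 lower at an unadjusted p under 0.05, against the 6.52% of all features, and did not pass that level turned. Histone genes, whose products package new DNA, were above 0 in 3 of 4 cases on SAM1 (median 0.097) and in 1 of 4 on SAM3 (median -0.040, turned -0.13). his1 gave 0.084 on SAM1 and 0.17 on SAM3 (turned 0.053), and cenH3, the centromere histone to which spindle microtubules attach through the kinetochore, gave 0.16 on SAM1 (0.014 without replicate 3) and -0.068 on SAM3 (turned -0.22). his2b5 gave 0.11 on SAM1 and his1a -0.023 on SAM3 (turned -0.032). On SAM3, his1 was the 1 histone gene of 4 higher at an unadjusted p under 0.05, against the same 6.52%, and did not pass that level turned. No actin gene was named on either array.

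Leaf primordium markers had ratios above 0 on SAM1, as kin4 had, but 0 of 5 passed an adjusted p of 0.05. The 5 genes ran from 0.136 to 0.492, where 51.4% of all SAM1 features were above 0. On SAM3, 5 of 6 were above 0, from -0.0114 to 0.332 (turned 6 of 6, from 0.0184 to 0.32), where 48.5% of all features were (turned 51.3%). Meristem markers ran from -0.122 to 0.171 on SAM1 and from -0.0649 to 0.0187 on SAM3 (turned -0.227 to 0.037). Epidermis markers on SAM1 were above 0 in 3 of 4 genes, from -0.0263 to 0.214. On SAM3 3 of 3 were (turned 1 of 3). Photosynthesis markers on SAM1 were above 0 in 3 of 4 genes, from -0.133 to 0.0763. On SAM3 2 of 3 were (turned 1 of 3). Vascular markers on SAM1 were above 0 in 0 of 2 genes, from -0.117 to -0.0902. On SAM3 1 of 2 was (turned 0 of 2). The part of tissue makeup in the kin4 values was not tested.

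The named genes whose 6 replicate ratios ran most closely with those of each kinesin gene were listed by Pearson's r. All points share a hybridisation with the kinesin spot, and the highest of many correlations over 6 points is high for most genes, so these are descriptions. On SAM1, kin4 was closest to PPP2R5B, a regulatory subunit gene of protein phosphatase 2A by its symbol (r = 0.949), HIT2 (0.934) and RP-P0, a ribosomal stalk protein gene (0.908), among 582 genes. On SAM3, kin4 was closest to hsp70-4, an HSP70 chaperone gene (r = 0.94, turned 0.97), PPCK2 (0.912, turned 0.855) and EF1-A, a translation elongation factor gene (0.894, turned 0.92), among 597 genes. No gene was in both lists for kin4. krp13 was closest on SAM1 to DER2.2 (r = 0.98), ark (0.96) and rbohB, an NADPH oxidase gene (0.955). On SAM3, krp13 was closest to rop6, a small GTPase gene (r = 0.924, turned 0.414), GOS2 (0.92, turned 0.555) and PDC (0.917, turned 0.482). For these krp13 genes on SAM3 r was much lower once the readings were turned, while for those of kin4 it was not. The genes were picked as closest with the dyes as labelled, which favours a lower r after the turn. No list was picked with the readings turned, and the difference between krp13 and kin4 was not tested.

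KIN9 and KIN8 also had different closest genes on the 2 arrays. KIN9 was closest to GAPC, a cytosolic glyceraldehyde phosphate dehydrogenase gene (r = 0.942), TIP2-2 (0.918) and pk8-b (0.912) on SAM1. On SAM3, KIN9 was closest to CDPK2, a calcium-dependent kinase gene (r = 0.945, turned 0.552), toc34 (0.922, turned 0.764) and pdi2 (0.919, turned 0.758). KIN8 was closest to atGRF2 (r = 0.978), elfa5 (0.968) and LOC541781 (0.952) on SAM1. On SAM3, KIN8 was closest to fnr1 (r = 0.965, turned 0.662), cys2 (0.961, turned 0.931) and HMG11, a chromatin protein gene (0.952, turned 0.986). Of the genes on SAM3 alone, krp1 was closest to NBP (r = 0.904, turned 0.925), sdg118, a SET domain gene (0.899, turned 0.868) and ALDH10A9 (0.87, turned 0.841). krp6 was closest to cyclotide (r = 0.937, turned 0.946), IPP (0.935, turned 0.338) and pdh1 (0.915, turned 0.934). Among these SAM3 genes, also picked with the dyes as labelled, r moved with the turn to different degrees. kin15 was closest to LOC542037 (r = 0.963, turned 0.938), nfd101, an HMG chromatin gene (0.96, turned 0.813) and umc1408 (0.934, turned 0.924).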

How the data were processed

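RNA of rgd2-R and non-mutant meristems was measured on 2-colour spotted arrays. The deposited intensity values are each spot's signal and local background per dye, not corrected or normalized, per the file headers. The deposited processed values were read as natural log ratios and converted to log2. After conversion, their median slope at bright spots was 0.942 (SAM1) and 0.999 (SAM3). That slope was taken on log2 ratios of the scanner signals after background subtraction and loess normalization. The sources used here do not give how the deposited values were processed. Background was corrected by normexp with an offset of 50, and loess normalization within arrays followed (limma 3.58.1, R 4.3.3). Values were averaged over the 3 readings, and genotype and a dye term were fitted with lmFit and eBayes (4 residual degrees of freedom), each array apart. p-values are two-sided and adjusted by Benjamini-Hochberg over all probes, or over genes and unnamed probes where spots of a gene were averaged. Differences between arrays were tested by exact permutation of the 6 replicates. The code was checked on simulated data.

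Gene names came from the platform annotation: 1800 SAM1 and 1159 SAM3 probes had 1 gene, 23 and 1 had several and stayed unnamed, and 17377 and 14840 had none here. The text names each kinesin gene and probe, up to 3 genes per list and array with the smallest p, and the 3 genes most alike. Members, lists and tests were chosen with earlier results of these data known. Alternatives were background correction, centring, single readings, dim probes, the dye term, the deposited ratios, turned directions and leaving out each replicate. No coordinates or sequences are given, because the files name no genome build.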

Additional observations from a re-analysis of the deposited data

Results flagged for a closer look

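At kin4 spot 5045 on SAM3, replicate 3 stood apart from the other 5 replicates once its low and mid readings were turned, at a log2 ratio of -0.858 against 0.108 to 0.454. Its gap to the nearest replicate was 0.736 of the whole range, above Dixon's critical value for 6 values. With the dyes as labelled, the same replicate was 0.293 and within the others, because its low and mid readings (0.775 and 0.952) lay opposite to its high reading (-0.848). Of 34 sets of 6 replicate values examined, 1 stood apart in this way, and chance gives about 1 in 20 such sets.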

How the results depend on the processing

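Under every alternative run, 0 kinesin probes were called, and over all probes the calls differed: 0 on SAM1 as reported, against 195 without background correction, 42 without the dimmest 25% of probes, 36 with mid alone, 11 with median centring, 2 without replicate 2 and 1 with the deposited ratios. At an unadjusted p under 0.05, 1 of 12 SAM3 kinesin probes passed as reported, beside 1053 of all 16000 SAM3 probes. With plain subtraction 3 passed, beside 757 of all probes, and with the deposited ratios 3, beside 760. With median centring 2 passed (942 of all probes), and 2 without replicate 3 (1016), 5 (870) or 6 (839). With replicate 2 also turned 0 passed (2664 of all probes), and 0 with replicates 2 and 3 left out (1903). At an adjusted p under 0.05, only the turn of replicate 2 together with the low and mid readings of replicate 3 gave any SAM3 probes, 2. The direction of kin4 held in every setting on both arrays, from 0.13 to 0.47 on SAM1 (adjusted p 0.166 to 0.748, and 0.20 to 0.34 leaving out 1 replicate) and from 0.048 to 0.13 on SAM3. Its unadjusted p on SAM1, 0.0236, missed 0.05 without replicate 1, 3, 4 or 6, with plain subtraction (0.0776) and with low alone (0.297). On SAM3 krp13, krp6 and kin15 also kept their direction, with 0.55 for kin15 from the deposited ratios. The signs below differ from those reported, and the cause was not tested.

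On SAM1 median centring gave KIN9 0.021, krp13 0.060 and KIN9 spot 15403 0.068, and the deposited ratios gave KIN9 0.036 and spot 15403 0.22. Plain subtraction gave KIN8 -0.19, and no correction gave spot 15403 0.040. Low alone gave krp13 0.044, mid alone krp13 0.014 and spot 15403 0.043, and high alone KIN8 -0.021 and spot 15403 0.0056. On SAM3 mid alone gave krp1 0.032 and KIN8 0.13, low alone kin4 spots 2524 0.013 and 14747 -0.016, and high alone spots 10691 -0.20 and 13524 -0.073. Median centring gave spots 2524 0.021 and 13524 -0.021, plain subtraction spots 10691 -0.0089 and 13524 -0.084, and the deposited ratios spots 10691 -0.012 and 13524 -0.088. Turning low and mid of replicate 3 gave spots 2524 0.024, 10691 -0.16 and 13524 -0.052. Turning replicate 2 as well gave krp1 0.00041, KIN9 -0.016 and spots 2524 0.070, 5045 -0.050, 10691 -0.27 and 13524 -0.061. Without replicates 2 and 3 together, spots 2524, 10691 and 13524 gave 0.015, -0.23 and -0.051.

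Leaving out 1 replicate at a time gave SAM1 KIN8 -0.0038 to 0.055, krp13 -0.062 to 0.0088 and KIN9 spot 15403 -0.038 to 0.010. On SAM3 it gave KIN9 0.043 to 0.16, krp13 0.057 to 0.22, krp6 0.014 to 0.12, kin15 0.044 to 0.20, KIN9 spot 10691 -0.046 to 0.16 and kin4 spot 13524 -0.017 to 0.076. KIN8 and krp13 turned on SAM1 without replicate 6, spots 15403 and 13524 without replicate 5, and spot 10691 without replicate 2, 3, 4 or 5.

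Replicate numbers did not pair the arrays: over 415 shared genes, same-numbered deviations correlated at -0.128 to 0.301, and 1 of 6 replicates correlated best with its own number. Under a replicate block, chosen after seeing the data, kin4 differed between arrays by 0.183 (exact p = 0.188), KIN9 by -0.147 (0.0938), KIN8 by 0.0763 (0.5) and krp13 by -0.164 (0.0312, the smallest p that 6 pairs allow, and 0.125 adjusted). Dim spots limit krp13 and KIN9 on SAM1, kin4 spot 2524 and KIN9 spot 15147.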
